A study of Sus scrofa with 6 samples.

Results

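The genes described here serve to build fatty acids from carbohydrate carbon in the cytosol or to place double bonds into fatty acids. They were taken from a list of 10 names, and a gene was measured where a transcript cluster, the unit in which the array reads a gene or a part of it, carries that name in the array annotation. Of the 10 genes 7 matched a cluster (MLXIPL, ACLY, ACACA, ME1, SCD, FADS1 and FADS2), out of 25385 clusters tested, and SREBF1, FASN and ELOVL6 matched none and are not analysed here. All values come from liver tissue of adult male German landrace pigs that underwent extended partial hepatectomy (ePHx), in which most of the liver is cut away, and that had been starved before surgery. The control group received Ringer solution as vehicle, and the MSC group received porcine bone marrow mesenchymal stromal cells (pBM-MSC), which by the methods had been differentiated in culture towards hepatocytes and were infused into a central vein. Liver was taken a day after surgery, and each group holds 3 arrays, 1 per animal. Both groups thus carry the resection. The arrays include none of sham-operated pigs, so the effect of the resection itself cannot be read from them. Signals are log2 values from RMA, which corrects background, equalizes the distributions of the arrays and summarizes the probes of a cluster, so a difference of 1 is a doubling.

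In the liver, glucose taken up after a meal is turned into citrate, which leaves the mitochondria and is cleaved in the cytosol to acetyl-CoA, carboxylated to malonyl-CoA and condensed to palmitate with NADPH as the reductant. Desaturases then act on the products, SCD on saturated fatty acids of this pathway and FADS1 and FADS2 on the essential polyunsaturated fatty acids of the diet. Transcription of these genes is driven by ChREBP, which responds to glucose metabolites, and by SREBP-1c, which responds to insulin and to liver X receptors and is held back by polyunsaturated fatty acids.

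Setting MSC against control asks which of these transcripts differ in the resected liver after cell infusion. MLXIPL, which encodes ChREBP, rose, with MSC 1.89-fold above control in measured signal, and FADS2, the delta-6 desaturase, fell, with control 1.63-fold above MSC. These folds are not exact, since MLXIPL on every control array and FADS2 on every MSC array read under the background level described below, 8.18. The arrays of the lower group were then set to that level, while those of the higher group stayed as measured. This gave folds of 1.09 for MLXIPL, MSC over control, and 1.10 for FADS2, control over MSC, without an interval. In the higher group, MLXIPL read above the level on 2 MSC arrays and FADS2 on 2 control arrays. FADS1, the delta-5 desaturase, had a mean difference of about the same size as FADS2 but its groups overlapped. The enzymes ACLY, ACACA, ME1 and SCD had differences between 0.04 and 0.28 and did not pass the test. Rose and fell are used here for clusters that meet both conditions the study set, an unadjusted p under 0.05 and a log2 difference of 0.5 or more in either direction. The p comes from limma, which shares information on the spread over all clusters, and a p under 0.05 is the same as a 95% interval of the difference that leaves out 0, so bounds in parentheses after a difference are those of that interval. After Benjamini-Hochberg adjustment over all clusters none of the 7 genes, and none of the 25385 clusters, had a p under 0.05. The lowest adjusted p was 0.736 among the 7 genes and 0.176 over all clusters, while 1662 clusters had an unadjusted p under 0.05.

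Past this threshold were 2 of the 7 genes, beside 692 clusters or 2.73% of all tested. In MSC 1 of the 7 genes was higher than in control, beside 1.24% of all clusters, and 1 of the 7 was lower, beside 1.49%. The 3 MSC values lay entirely above or below the 3 control values for 2 of the 7, as they did for 11.6% of all clusters. The median difference of the 7 genes was 0.20, while that of all clusters was -0.01 and that of the clusters above the background level was 0.07. Their median absolute difference was 0.28, against 0.13 over all clusters. The background level, 8.18, is the 95th percentile of 23 antigenomic probe sets, which match no pig sequence by design and whose means lay between 1.58 and 8.25 with a median of 3.95. It is a strict level, and 5627 clusters (22.2%) had a mean above it, among them 4 of the 7 genes. MLXIPL with a mean of 7.85, FADS2 with 7.97 and ME1 with 8.16 stayed below it. Where a group mean lies under this level, the difference is one of measured signals and no exact fold follows from it.

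**Figure D1:**
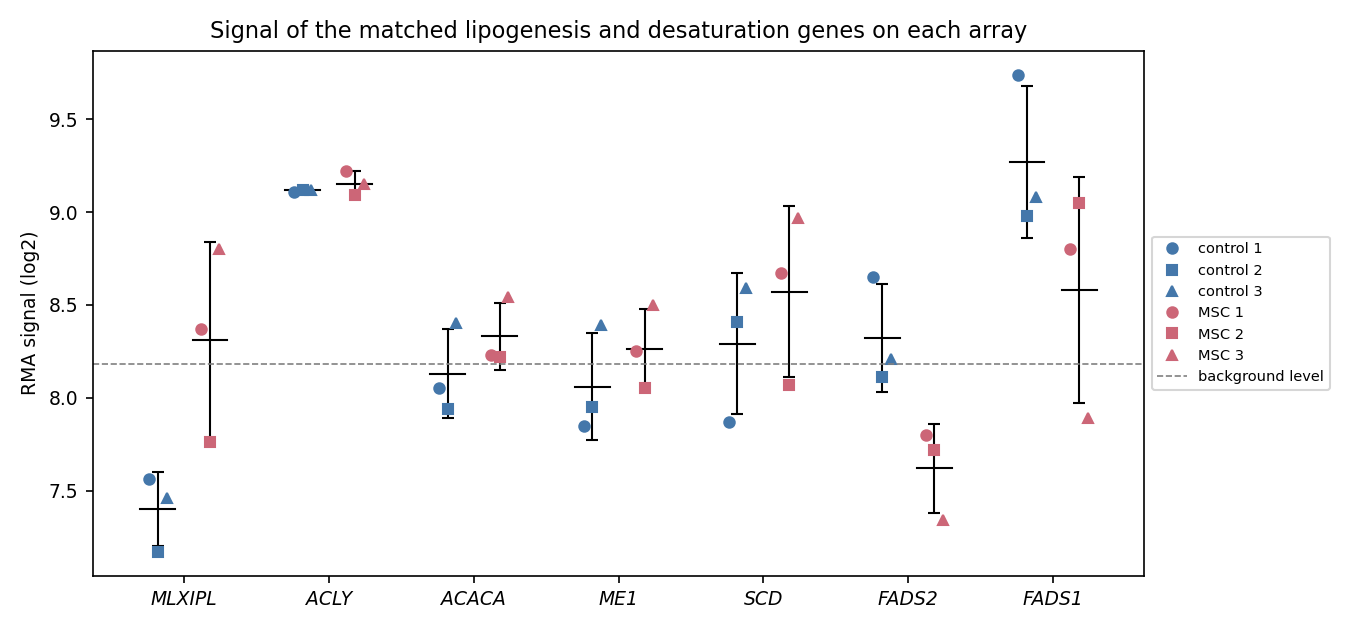
RMA signal in log2 units (y axis) of the 7 matched genes (x axis) on each of the 6 arrays, with control arrays in blue, MSC arrays in red and the same marker shape for the same array number. Horizontal lines are group means, bars are SD of 3 arrays and the dashed line is the background level of 8.18. The MSC points of MLXIPL all lie above and those of FADS2 all below their control points, while those of ACLY span only 0.13 over all 6 arrays.

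MLXIPL lies on chromosome 3 and encodes ChREBP, the transcription factor through which glucose metabolites switch on glycolytic and lipogenic genes. The 3 control arrays read 7.56, 7.17 and 7.46 in the order of their numbers. The 3 MSC arrays read 8.37, 7.76 and 8.80. Every MSC array stood above every control array, with a gap of 0.20 between MSC 2 and control 1, and the control mean lay below the background level while the MSC mean lay above it. The mean went from 7.40 ± 0.20 to 8.31 ± 0.53 (SD, n = 3). By limma the difference was 0.92 (95% interval 0.33 to 1.51, SE 0.25, adjusted p = 0.736). Leaving out 1 array at a time gave differences between 0.67 without MSC 3 and 1.19 without MSC 2, past the threshold in 6 of 6 fits. Of the 26 probes in its cluster 7 match the partial mRNA to which the annotation assigns it.

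SREBF1, whose product SREBP-1c is the insulin-responsive counterpart of ChREBP, was not among the matched genes. The list of genes that process SREBP proteins or act with them had 10 of 13 matched. INSIG1, which holds the SREBP and SCAP complex in the endoplasmic reticulum and is itself an SREBP target, was past the threshold in the downward direction, and no gene of the list was past it upward. INSIG1 read 8.86, 8.77 and 8.40 in control and 7.84, 8.50 and 7.58 in MSC. Its MSC mean of 7.98 lay under the background level, with 1 MSC array above that level. MSC 2 lay above control 3, so the groups overlapped. The difference was -0.70 (95% interval -1.27 to -0.14, adjusted p = 0.736 by limma), and it missed the threshold without control 1 (-0.61), control 2 (-0.65), MSC 1 (-0.63) or MSC 3 (-0.50). SCAP, the escort of SREBP to the Golgi, differed by 0.18 (-0.11 to 0.46) and MBTPS2, a protease that releases it, by 0.20 (-0.19 to 0.59). NR1H3, the liver X receptor alpha that drives SREBF1, read 9.08, 9.12 and 9.17 in control and 9.33, 9.31 and 9.25 in MSC. Its groups did not overlap, but the difference of 0.17 (95% interval -0.08 to 0.43) did not pass. PPARGC1B, a coactivator of SREBP and liver X receptors, differed by -0.22 (-0.55 to 0.11) at a signal under the background level. The 10 genes had a median difference of 0.09, with 8 positive. Beside this list and those below stand 2.73% of all clusters past the threshold. Positive differences were found in 46.7% of all clusters and in 64.6% of those above the background level.

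The partner of ChREBP and genes that respond to glucose were matched for 8 of 13. No gene of this list was past the threshold, 5 differences were positive and the median was 0.10. PKLR, the liver pyruvate kinase and the textbook target of ChREBP, read 6.13, 5.93 and 5.78 in control and 6.61, 6.31 and 6.27 in MSC. All 6 values lay under the background level. The lowest MSC value lay above the highest control value, and the difference of 0.45 in measured signal (95% interval 0.11 to 0.80) was short of the size required. MLX, the obligate partner of ChREBP on DNA, read 8.58, 8.21 and 8.42 in control and 8.95, 8.58 and 8.81 in MSC, a difference of 0.38 (95% interval 0.02 to 0.73) that was also too small. The groups of MLX met where MSC 2 and control 1 both read 8.58. Among other glucose-responsive genes the differences of KLF10, at -0.35 (-0.75 to 0.05), and TXNIP, at -0.13 (-0.47 to 0.21), were negative and did not pass.

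ACLY, ACACA and ME1 supply the building blocks. ACLY on chromosome 12, the lyase that makes cytosolic acetyl-CoA from citrate, read 9.11, 9.12 and 9.12 in control. In MSC it read 9.22, 9.09 and 9.15. The groups overlapped and the difference was 0.04 (95% interval -0.21 to 0.29, adjusted p = 0.944). Its range of 0.13 over the 6 arrays was among the narrowest on the array, since 0.9% of all clusters spanned less and the median range was 0.51.

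ACACA on chromosome 12 encodes acetyl-CoA carboxylase 1, which forms malonyl-CoA. It read 8.05, 7.94 and 8.40 in control and 8.23, 8.22 and 8.54 in MSC. Control 3 lay above MSC 1 and MSC 2, and the difference was 0.20 (95% interval -0.18 to 0.58, adjusted p = 0.806). A second cluster with the same name is annotated on the opposite strand, with 49 probes against 24, and read 7.53, 7.62 and 7.86 in control and 7.62, 7.69 and 7.94 in MSC. There the difference was 0.08 (95% interval -0.25 to 0.41, adjusted p = 0.901).

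ME1 on chromosome 1, the cytosolic malic enzyme that yields NADPH, read 7.85, 7.95 and 8.39 in control and 8.25, 8.05 and 8.50 in MSC. The difference was 0.20 (95% interval -0.23 to 0.63, adjusted p = 0.819), with control 3 above MSC 1 and MSC 2 as for ACACA. FASN, the synthase that joins these products into palmitate, was not among the matched genes. The upper bounds of ACACA and ME1 reached past 0.5 and that of ACLY did not.

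Around these enzymes 11 of 18 genes of carbon and NADPH supply were matched. None was past the threshold, 9 differences were positive and the median was 0.21. TALDO1, the transaldolase of the pentose phosphate pathway, read 10.93, 10.76 and 10.92 in control and 11.12, 11.20 and 11.23 in MSC, a difference of 0.31 (95% interval 0.05 to 0.58). PGD, which yields NADPH in the same pathway, read 9.52, 9.41 and 9.61 in control and 9.77, 9.80 and 9.85 in MSC, a difference of 0.29 (95% interval 0.03 to 0.56). For neither gene did the groups overlap, and both differences were under 0.5. MDH1, the cytosolic malate dehydrogenase, differed by 0.22 (-0.16 to 0.60) and the citrate carrier SLC25A1 by 0.34 (-0.34 to 1.02). SLC25A1 was highest on control 1, at 9.42 against 8.22 and 8.43 on the other control arrays.

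The list of partners in synthesis and elongation had 9 of 19 genes matched, none past the threshold, 4 positive and a median of -0.01. MID1IP1, an activator of acetyl-CoA carboxylase, read 6.68, 7.58 and 7.73 in control and 7.38, 7.62 and 8.20 in MSC, a difference of 0.40 (95% interval -0.32 to 1.12). THRSP, its relative known as Spot 14, differed by -0.01 (-0.35 to 0.32), and ACACB, the mitochondrial carboxylase isoform, by -0.02 (-0.30 to 0.26). MID1IP1, THRSP and ACACB had both group means under the background level. CYB5A, the cytochrome that passes electrons to the desaturases, differed by 0.23 (-0.34 to 0.79).

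**Figure D2:**
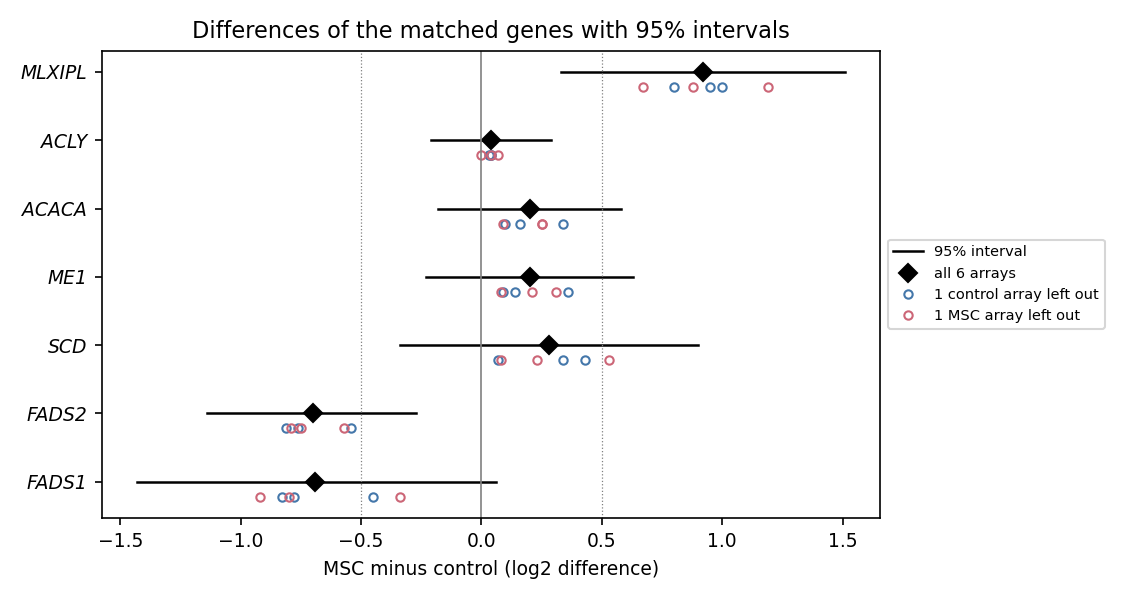
Difference MSC minus control in log2 units (x axis) for each matched gene (y axis). Black diamonds with lines are the fit on all 6 arrays with its 95% interval, open circles are fits with 1 control (blue) or 1 MSC (red) array left out, and dotted lines mark differences of -0.5 and 0.5. All circles of MLXIPL lie at 0.67 or above and all of FADS2 at -0.54 or below, while those of FADS1 reach from -0.92 to -0.34.

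SCD on chromosome 14 encodes stearoyl-CoA desaturase, the delta-9 desaturase that makes oleate and palmitoleate. It read 7.87, 8.41 and 8.59 in control and 8.67, 8.07 and 8.97 in MSC. MSC 2 lay below control 2 and control 3, and the spread within both groups was wide. The mean was 8.29 ± 0.38 in control and 8.57 ± 0.46 in MSC (SD, n = 3), and the difference was 0.28 (95% interval -0.34 to 0.90, adjusted p = 0.821). It was 0.07 without control 1 and 0.53 without MSC 2, so that its size rested on single arrays.

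FADS2 on chromosome 2 encodes the delta-6 desaturase, which takes the first step from linoleic and alpha-linolenic acid to the long polyunsaturated fatty acids. The control arrays read 8.65, 8.11 and 8.21. The MSC arrays read 7.80, 7.72 and 7.34. Each MSC array stood below each control array, with a gap of 0.31, and the MSC mean lay under the background level. The mean went from 8.32 ± 0.29 to 7.62 ± 0.24 (SD, n = 3), a difference of -0.70 (95% interval -1.14 to -0.27, SE 0.19, adjusted p = 0.736 by limma). With 1 array left out it lay between -0.81 without control 2 and -0.54 without control 1, past the threshold in 6 of 6 fits.

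FADS1, also on chromosome 2, encodes the delta-5 desaturase, which makes arachidonic and eicosapentaenoic acid further down the same route. In control it read 9.74, 8.98 and 9.08. In MSC it read 8.80, 9.05 and 7.89. MSC 2 lay above control 2, so the groups overlapped by 0.06, while MSC 3 stood far under the rest. The mean was 9.27 ± 0.41 in control and 8.58 ± 0.61 in MSC (SD, n = 3), and the difference of -0.69 (95% interval -1.43 to 0.06, SE 0.32, adjusted p = 0.758) did not pass. It passed without MSC 2 (-0.92), while it was -0.34 without MSC 3 and -0.45 without control 1. A second FADS1 cluster, annotated on the opposite strand, holds the same 6 values, and both are marked in the annotation as prone to cross-hybridization, so that they count as 1 measurement. FADS3, the third gene of this family, read 6.34, 6.95 and 6.61 in control and 6.29, 6.72 and 6.06 in MSC. Its difference was -0.27 (95% interval -0.77 to 0.22), with values under the background level on all arrays. ELOVL6, which lengthens palmitate to stearate, was not among the matched genes.

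The genes also differed in how far they ranged over the 6 arrays, a measure that does not use the groups. FADS1 ranged over 1.85, MLXIPL over 1.63, FADS2 over 1.31 and SCD over 1.11, more than 98.6%, 97.7%, 95% and 91.4% of all clusters. ME1 with 0.65 and ACACA with 0.60 ranged more than 67.4% and 61.9%. The array MSC 3 carried the highest value of MLXIPL, ACACA, ME1 and SCD and the lowest value of FADS1 and FADS2, that is, an extreme for 6 of the 7 genes. Over all clusters 32.3% had their highest or lowest value on MSC 3, within the 24.1% to 43.7% of the other arrays. Control 1 carried an extreme for 4 of the 7, with the highest FADS1 and FADS2 and the lowest SCD and ME1, beside 37.9% of all clusters. Without MSC 3 the median difference of the 7 genes was 0.08, and without control 1 it was 0.07.

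**Figure D3:**
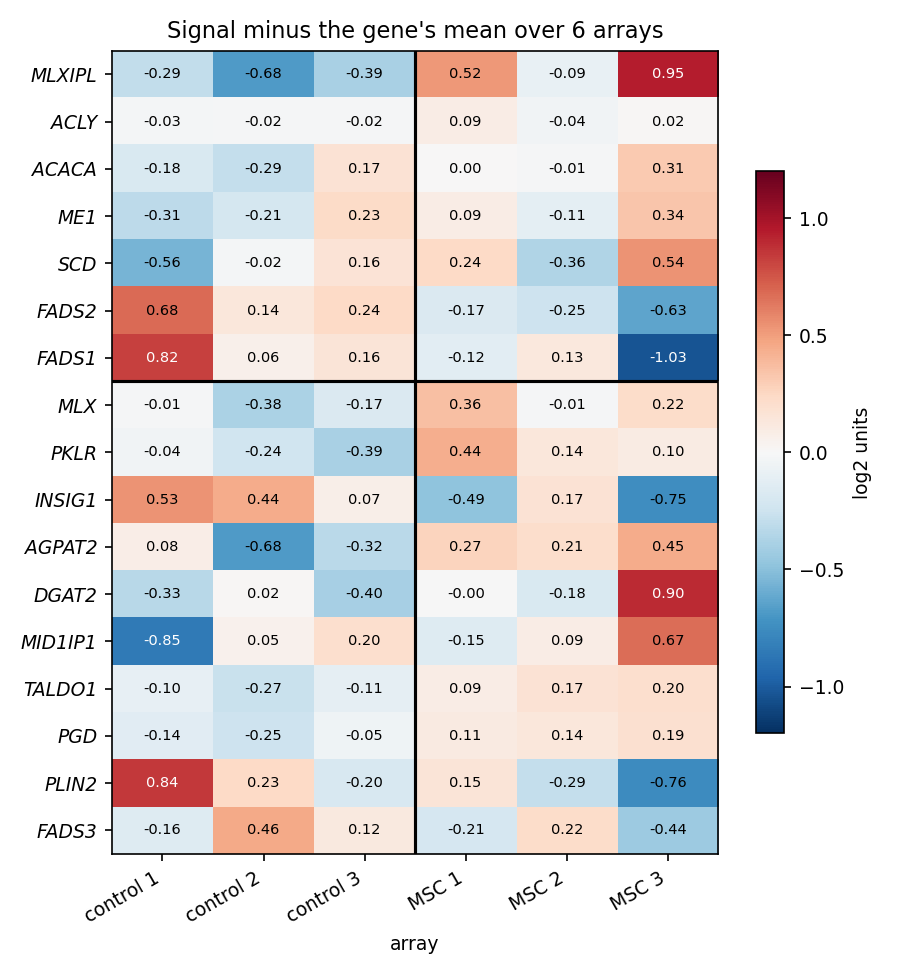
Signal on each array (columns) minus the mean of the gene over the 6 arrays, in log2 units, for the 7 matched genes (upper block) and 10 genes of the related lists (lower block), which were chosen after their values were seen. Red is above and blue below the mean of the gene, the vertical line separates control from MSC, and the number in each cell is the value. On MSC 3 MLXIPL stands at 0.95, and FADS1 at -1.03.

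Fatty acids leave the pathway by activation and esterification. Of the genes of acyl-CoA synthesis and glycerolipid assembly 20 of 23 were matched. Of these 1 rose and none fell, beside 2.73% of all clusters past the threshold. The median was 0.09, and 14 differences were positive, beside 46.7% of all clusters and 64.6% of those above the background level. AGPAT2, the acyltransferase that makes phosphatidic acid, rose from 9.80, 9.04 and 9.40 in control to 9.99, 9.93 and 10.17 in MSC. Its groups did not overlap, and the difference was 0.62 (95% interval 0.17 to 1.08, adjusted p = 0.736 by limma). Without control 2 it was 0.43 and missed the size required. DGAT2, which completes triglycerides from newly made fatty acids, read 7.40, 7.75 and 7.33 in control and 7.73, 7.55 and 8.63 in MSC, a difference of 0.48 (95% interval -0.16 to 1.12). DGAT1 differed by 0.15 (-0.22 to 0.52), and LPCAT3, which places polyunsaturated chains into phospholipids, by 0.34 (-0.21 to 0.90). DGAT1 and DGAT2 had both group means under the background level.

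For lipid droplets 12 of 16 genes were matched, none past the threshold, 6 positive and with a median of -0.03. PLIN2, the droplet coat protein of fatty hepatocytes, had a mean of 12.05 ± 0.53 in control and 11.46 ± 0.45 in MSC (SD, n = 3). The groups overlapped, and the difference was -0.59 (95% interval -1.30 to 0.12). PLIN4 differed by 0.48 (-0.30 to 1.27) and FITM2, which acts in droplet formation, by 0.33 (-0.05 to 0.71), both with group means under the background level.

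Insulin raises and AMPK lowers lipogenesis, and 12 of 18 genes of these routes were matched. None was past the threshold, and all 12 differences were positive, with a median of 0.16. Positive were 46.7% of all clusters, 48.9% of genes taken with 1 cluster each and 64.6% of clusters above the background level. The groups did not overlap for 4 of the 12, beside 11.6% of all clusters. These were IRS1 at 0.34 (-0.01 to 0.70), FOXO1 at 0.24 (-0.04 to 0.52), AKT2 at 0.22 (-0.06 to 0.49) and MTOR at 0.13 (-0.12 to 0.38). IRS1, the docking protein of the insulin receptor, read 7.62, 7.55 and 7.17 in control and 7.64, 7.87 and 7.87 in MSC, all under the background level.

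Cholesterol synthesis and fatty acid oxidation were set beside lipogenesis, the first as the other branch of SREBP control and the second as the opposing route. In cholesterol synthesis 13 of 22 genes were matched, none past the threshold, 6 positive and with a median of -0.06. SQLE, the squalene epoxidase, read 8.30, 7.31 and 8.28 in control and 7.81, 6.94 and 6.91 in MSC, a difference of -0.74 (95% interval -1.51 to 0.03), while NSDHL differed by 0.38 (0.01 to 0.75) and HMGCS1 by -0.34 (-0.86 to 0.18). In fatty acid oxidation 19 of 22 were matched, none past the threshold, 12 positive and with a median of 0.11. FGF21, a fasting hormone, differed by -0.47 (-0.93 to -0.01), CPT1A, which admits fatty acids to mitochondria, by -0.49 (-1.14 to 0.16) and PPARA, the nuclear receptor of this route, by 0.50 (-0.13 to 1.13). SQLE and FGF21 had both group means under the background level.

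**Figure D4:**
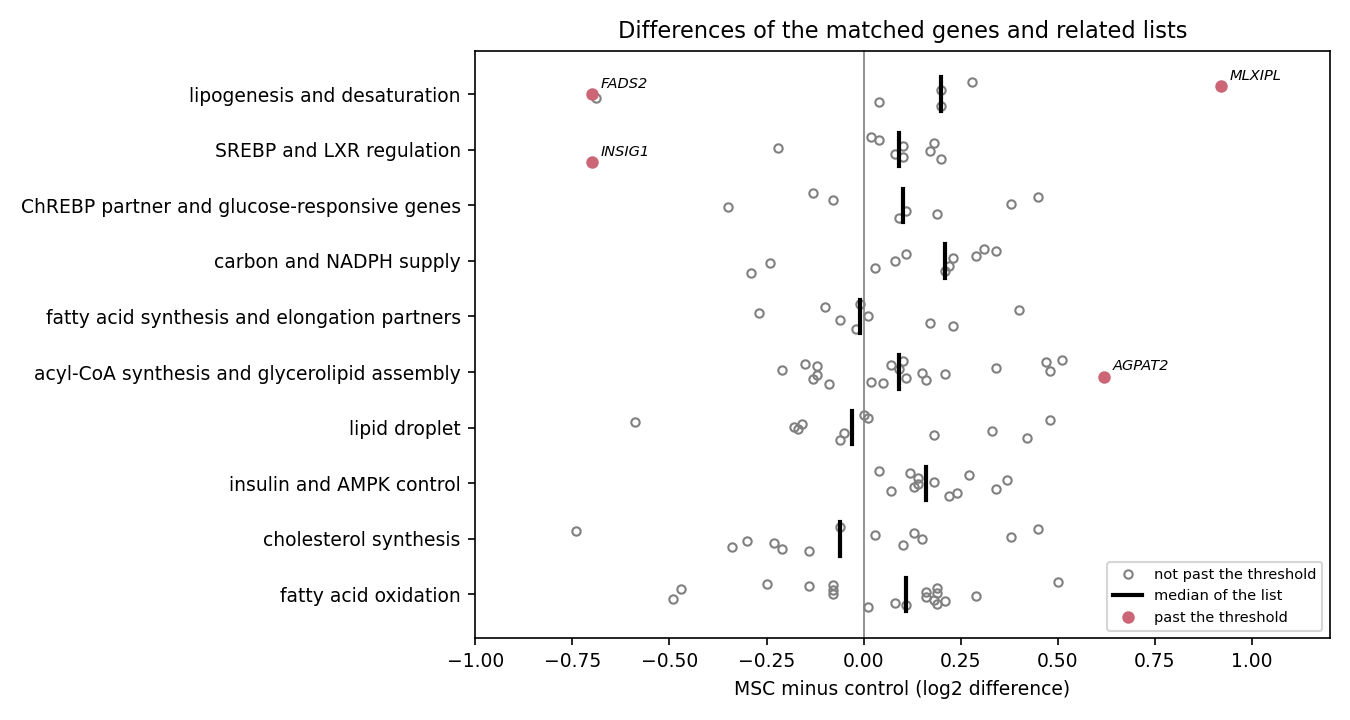
Difference MSC minus control in log2 units (x axis) of each matched gene in the lipogenesis and desaturation group and in 9 related lists (y axis). Filled red points are past the threshold and named, open points are not, and black bars are medians. MLXIPL and AGPAT2 lie above 0 and FADS2 and INSIG1 below it, and the medians lie between -0.06 and 0.21.

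The samples are whole tissue, in which fewer cells of a type and less RNA per cell cannot be told apart. Among 8 of 10 hepatocyte markers matched, HNF4A, a hepatocyte transcription factor, was past the threshold at 0.70 (0.16 to 1.25), and the mean signal of the list was 12.20 to 12.66 in control and 12.50 to 12.66 in MSC, with 6 of 8 differences positive and a median of 0.09. Of adipocyte markers 4 of 8 were matched, all under the background level, with means of 5.24 to 5.46 in control and 5.19 to 5.27 in MSC and no positive difference (median -0.19), and the defining ADIPOQ and FABP4 were not among them. The bile duct list, with 4 of 5 matched, had CFTR at -0.94 (-1.59 to -0.29) and EPCAM at -0.77 (-1.43 to -0.12) past the threshold and a mean of 7.61 to 8.31 in control and 7.13 to 7.73 in MSC. All 4 were lower in MSC by value, with a median of -0.61, and 0 of 4 had a mean over the arrays above the background level. The endothelial list, with 4 of 6 matched, had VWF past the threshold at -0.71 (-1.21 to -0.21) and a mean of 8.54 to 9.50 in control and 8.43 to 8.98 in MSC. All 4 were lower by value, with a median of -0.33, and VWF read under the background level on all arrays. No marker was past the threshold among 7 of 8 for stellate cells and fibroblasts, with 9.48 to 10.71 in control and 9.62 to 10.08 in MSC, but all 7 were lower in MSC by value, with a median of -0.34. The same held for 4 of 7 macrophage and leukocyte markers, with 7.80 to 8.26 in control and 7.88 to 8.06 in MSC, where 3 of 4 differences were negative and the median was -0.24. The monocyte receptor CD14 was the positive one, at 0.48 (0.19 to 0.78) without overlap, just short of the size required. MARCO was lower without overlap, at -0.28 (-0.59 to 0.04), with both group means under the background level. Among 6 of 6 mesenchymal stromal cell markers none was past the threshold either. Their mean was 8.53 to 9.01 in control and 8.33 to 8.78 in MSC, 5 of 6 differences were negative and the median was -0.32. CD44 among them differed by -0.45 (-0.83 to -0.08) without overlap. Control 1 had the lowest control mean of the bile duct, endothelial, stellate, macrophage and stromal lists and the highest of the hepatocyte list. It also had the highest control signal of FADS1 and FADS2. MSC 3 had the lowest mean of all arrays for the bile duct, endothelial and stromal lists. It had the lowest signal of FADS1 and FADS2 and the highest of MLXIPL and HNF4A. HNF4A read 9.71, 8.75 and 9.26 in control and 9.91, 9.77 and 10.14 in MSC, the same order of arrays as MLXIPL. The mean of the hepatocyte list was 12.51 on MSC 3, below the 12.66 of control 1 and MSC 1. The part of these marker levels in the differences of the lipogenesis and desaturation genes was not tested.

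**Figure D5:**
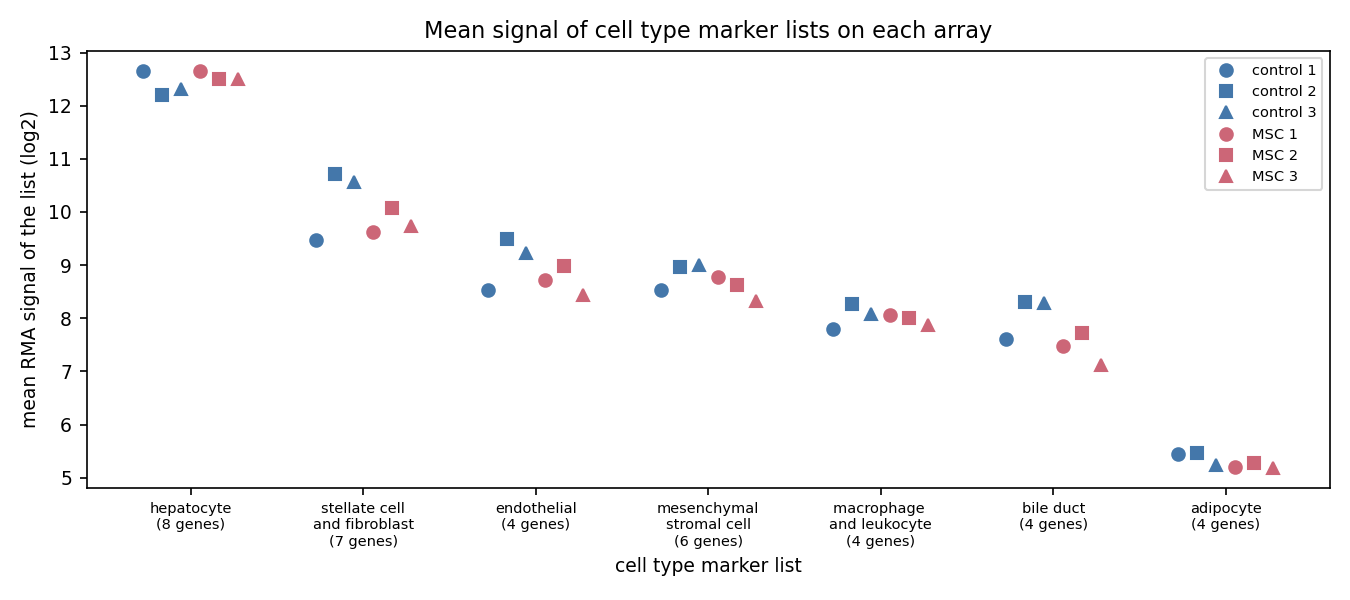
Mean RMA signal in log2 units (y axis) of the matched markers of 7 cell types (x axis, with the number of genes) on each array, with control in blue and MSC in red. The hepatocyte list lies at 12.20 or above and the adipocyte list at 5.46 or below on every array. In the bile duct list MSC 3 is lowest at 7.13.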

How the data were processed

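The authors hybridized biotinylated cDNA from total RNA to the Porcine Gene 1.0 ST array of Affymetrix, with 3 arrays per group, and deposited log2 signals per transcript cluster, computed with RMA in Affymetrix Expression Console 1.4. They were used without further normalization. The set of arrays that entered the normalization and the genome build of the annotation are not given in the sources used here. Only chromosomes are therefore named. Left out were 6 signal columns of the annotation workbook, whose names fit no sample.

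Of 27558 probe sets 25385 clusters (19124 main, 6261 rescue) were tested. Where several clusters carry a name, that of highest mean signal stands for the gene. MSC was compared with control by limma 3.58.1 in R 4.3.3 (lmFit, eBayes, 4 residual and 3.8 prior degrees of freedom), without pairing, with Benjamini-Hochberg adjustment over all clusters, and the calculation was tested on simulated data. P-values measure the spread between arrays of different animals, and the number of arrays limits the precision. Named were the 10 genes and, of each pathway list, the genes past the threshold and otherwise up to 3 with the smallest p, and of marker lists those past the threshold. Some further genes were named after their values were seen, CD14, MARCO and CD44 among them. For genes ranging over more than 1 log2 unit, the 3 most alike were named by root mean square distance of centred signals. Genes and lists were chosen with earlier results of these data known. The alternatives were each array left out, replicate numbers as a block, median centring, repeated quantile normalization, array weights, eBayes with trend and robust, a low-signal filter, main clusters only, 1 cluster per gene or their mean, and the methods' t-test.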

Additional observations from a re-analysis of the deposited data

How the results depend on the processing

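Of 102 values of the 7 genes under 15 alternatives, 97 kept their direction and their side of the threshold. ACLY turned to -0.02 with repeated quantile normalization. Under the methods' t-test, which asks for more than 2-fold, MLXIPL (0.92, adjusted p = 0.829) and FADS2 (-0.70, adjusted p = 0.829) did not pass, 0 of the 7 genes passed and 32 clusters did. Over the alternatives the adjusted p of MLXIPL lay between 0.172 and 0.999, that of FADS2 between 0.192 and 0.999 and that of FADS1 between 0.391 and 0.999. Without clusters of low signal 0 of the 4 genes left passed, since MLXIPL and FADS2 were removed. Of the 5627 clusters left, 188 passed (96 higher, 92 lower). Array weights gave 1565 clusters, against 692 of 25385 (314 higher, 378 lower). With 1 cluster per gene 297 of 11744 genes passed (171 higher, 126 lower). Median centring gave 384 higher and 305 lower. Leaving out 1 array gave between 445 clusters without control 2 and 2215 without control 1, with 1240 without MSC 2. FADS1 then lay between -0.92 and -0.34.

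The replicate numbers are not stated to pair animals, so they were not taken to do so. Same-numbered arrays deviated from their group means with correlations of -0.02, 0.25 and -0.08. With so few arrays per group, these cannot settle whether animals were paired. With the replicate block FADS1 was past the threshold at -0.69 (adjusted p = 0.643), 3 of the 7 genes passed and 834 clusters did.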

Other observations

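Genes whose 6 signals, each centred on its mean, ran closest to those of a lipogenesis or desaturation gene were sought among 10158 named genes, as a description over 6 arrays. Closest to MLXIPL were SLC3A1, a subunit of the cystine transporter, at a root mean square distance of 0.09 log2 units, the aquaporin AQP11 at 0.10 and the cytokine IL7 at 0.11. SLC3A1 read 5.62, 5.07 and 5.49 in control and 6.53, 5.67 and 6.84 in MSC, so that MSC 3 was highest and control 2 lowest, as for MLXIPL. Closest to FADS2 were KCNE3, a subunit of potassium channels, at 0.10, and AKAP5 and CACNA2D1, both at 0.14. KCNE3 read 8.04, 7.72 and 7.55 in control and 7.12, 7.21 and 6.73 in MSC. Closest to SCD were APOBEC3F at 0.05, CD274 at 0.08 and CTSO at 0.11, and APOBEC3F read 6.07, 6.62 and 6.69 in control and 6.88, 6.18 and 7.09 in MSC. FADS1 had no gene as close, with HIST3H2BB at 0.19 and PGC and GRAMD3 both at 0.24. Apart from GRAMD3, with 8.85, and CACNA2D1, with 8.18, the mean signals of these genes lay under the background level.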
